A study of Mus musculus with 19 samples.

Results

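Zbtb16-positive cells were picked from mouse thymus by their RNA: a cell was taken when it had at least 2 UMIs (unique molecular identifiers, 1 per captured transcript) of Zbtb16 and 0 UMIs of Cd8b1, Foxp3, Sox13 and Cd79a. The rule left 97 cells of the 79569 that had at least 200 genes and at most 15% mitochondrial UMIs. Of these, 42 came from the 5 wild-type mice, 54 from the 2 MHCII-/- mice and 1 from an MHCI-/- mouse, and 0 came from the 8 T cell receptor (TCR) transgenic mice. Zbtb16 encodes PLZF, the transcription factor that marks innate-like T lymphocytes. The other genes of the rule remove CD8 lineage and double-positive thymocytes, regulatory T cells, a class of γδ T cells and B cells. Of 165 filtered cells with at least 2 Zbtb16 UMIs, 56 had a UMI of Cd8b1. The 5 genes of the rule chose the cells, so their levels are no result.

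The study profiled thymocytes by CITE-seq, which reads the transcripts of a cell together with DNA-tagged antibodies bound to its surface, in 19 lanes from 17 female mice aged 4-8 weeks. Wild-type mice were C57BL/6 (B6). MHCI-/- mice lack B2m and MHCII-/- mice lack H2-Ab1, and both keep a diverse receptor repertoire. OT-I and F5 mice carry a transgenic receptor restricted to MHC class I and OT-II and AND mice one restricted to MHC class II, and the AND and F5 transgenes were on a Rag1-/- background. Thymocytes of both MHC-deficient genotypes and of wild-type mice 1 to 3 were sorted for CD5 and TCRβ before capture, whereas wild-type mice 4 and 5 (2 lanes each) and all TCR transgenic mice were not sorted. Each genotype had 2 mice apart from wild type. Total RNA UMIs per lane ranged from 9893333 to 43303999 and antibody UMIs from 4484116 to 34762051.

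Invariant natural killer T (NKT) cells are αβ T cells whose receptor joins 1 variable segment of the α chain, Trav11, to 1 joining segment, Traj18. They recognise lipids held by CD1d, which needs β2-microglobulin to reach the surface, and are selected on other thymocytes rather than on the thymic stroma. PLZF drives their effector program before they leave the thymus, where they split into NKT1 cells (T-bet, interferon-γ), NKT2 cells (interleukin 4 and interleukin 13) and NKT17 cells (interleukin 17). Some γδ T cells and mucosal-associated invariant T cells, which are selected on MR1, also express PLZF, and no lipid-loaded CD1d reagent was in the antibody panel.

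The segments of the invariant receptor are shown because they define the α chain of the invariant receptor. In the mouse reference (GRCm38, GENCODE coordinates) Traj18 lies at chr14:54200777-54200842 on the plus strand. Capitals mark the stretch that encodes the phenylalanine-glycine motif shared by joining segments.
Traj18: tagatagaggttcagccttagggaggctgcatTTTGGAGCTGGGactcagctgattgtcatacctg
The last 80 bases of the Trav11 exon lie at chr14:53519780-53519859 on the plus strand, with capitals on the codons of the conserved tyrosine and cysteine near the junction.
Trav11: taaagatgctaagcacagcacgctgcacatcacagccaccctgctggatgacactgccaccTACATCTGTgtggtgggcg
A near copy of the variable segment, Trav11d, did not differ from Trav11 at any of the 290 positions of the V exon compared. Reads within these positions cannot be told apart, so the UMIs of the pair were added. The rest of both genes was not compared. A UMI of Trav11, Trav11d or Traj18 was present in 18 of the 97 Zbtb16-positive cells (18.6%). In the wild-type Zbtb16-positive cells Traj18 had 1 UMI and Trav11 had 6. The count there thus rests mostly on the variable segment, which alone does not show the join. Cells that held both segments were not counted. Among cells of wild-type and MHCII-/- mice with at least 8000 RNA UMIs such a UMI was present in 17 of 86 Zbtb16-positive cells (19.8%) and in 13 of 952 cells of the same genotypes with 0 UMIs of all 5 rule genes (1.37%). Their median depths were 18627.5 and 10088 UMIs, and the libraries read transcripts from the 3′ end, far from the variable segments. The 18 cells were 6 of 23 and 7 of 31 in the MHCII-/- mice and 0 of 3, 3 of 9, 0 of 9, 2 of 19 and 0 of 2 in wild-type mice 1 to 5. Of all MHCI-/- cells, 14 held a segment UMI, and none of those 14 had a UMI of Zbtb16.

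Zbtb16-positive cells held many RNA UMIs, and the rule itself favors deep cells, since it asks for 2 UMIs of 1 gene. Their median was 17238 UMIs (2749 to 41518) and 3603 genes, against 4010 UMIs and 1694 genes over all filtered cells. The median cell held 3 Zbtb16 UMIs and the highest 17. Just inside the threshold, 38 cells held exactly 2 Zbtb16 UMIs, with a median of 15060 RNA UMIs, a UMI of Icos in 31 and of Il4 in 14. Just outside it, 67 cells with 0 UMIs of the other rule genes held exactly 1, with a median of 10437 RNA UMIs, a UMI of Icos in 40 and of Il4 in 11. Over all genotypes, 16 of 26662 cells with the RNA of double-positive thymocytes had 2 or more Zbtb16 UMIs (0.0600%, exact 95% interval 0.0343 to 0.0974%). The median depth of this gate was 2839 UMIs. No TCR transgenic mouse held a cell with 2 or more Zbtb16 UMIs, so the 16 came from the other genotypes. Whether they held free RNA, were doublets or expressed the gene was not tested. Of 132 B cells 0 had 2 or more, which allows a share of up to 2.27%. A doublet caller marked 6 of the 97 cells (6.19%) and 4.00% of all filtered cells. Cell barcodes that occurred in more than 1 lane covered 5 of the 97 cells, and no barcode was held by Zbtb16-positive cells of 2 lanes.

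The first comparison asked in which genotypes the cells were found. Zbtb16-positive cells made up 0.659% and 0.592% of filtered cells in the MHCII-/- mice. In the sorted wild-type mice they made up 0.0975%, 0.190% and 0.364%, and in the unsorted wild-type mice 0.152% and 0.0207%. In the MHCI-/- mice they made up 0.0227% (1 cell) and 0%. In the 8 TCR transgenic mice there were 0 of 30378 cells, which allows a share of up to 0.00988%. The 2 MHCII-/- mice were thus above every wild-type mouse, and the 5 wild-type mice overlapped the MHCI-/- range through the unsorted mouse 5 alone. Median RNA UMIs per lane were 4764.5 and 5433 in MHCII-/-, 4151 to 5103 in sorted and 1516.5 to 3501 in unsorted wild-type mice. The makeup of the other cells differed too. A gate for mature CD4 cells, set out below, held 40 and 80 cells in MHCII-/- and 396 to 671 in sorted wild-type mice. The part of this makeup in the shares was not tested.

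**Figure D1:**
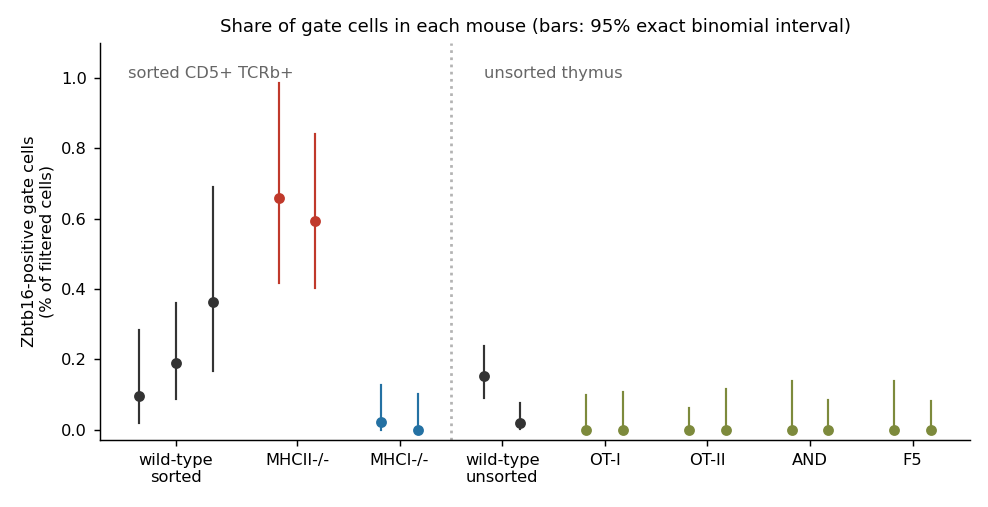
Percent of filtered cells that were Zbtb16-positive (y axis, linear) in each of the 17 mice, grouped by genotype and by sort (x axis). Points are mice and bars are exact 95% binomial intervals, which cover counting error only. The 2 MHCII-/- mice sit at 0.659% and 0.592%, and all 8 TCR transgenic mice sit at 0.

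Wild-type and MHCII-/- mice had a share of 0.296 ± 0.249% (SD, n = 7) against 0.00227 ± 0.00718% (n = 10) in the pooled MHCI-/- and TCR transgenic mice. No single trait separates these sets, since TCR transgenic mice keep β2-microglobulin and MHCI-/- mice rearrange their own receptors. The difference of 0.294 percentage points passed a two-sided exact permutation test over mice (p = 0.000206 over 19448 splits). The titles of the samples carry 3 experiment numbers. Within experiment 2, which held both MHC-deficient genotypes, wild-type mice 2 and 3 and a mouse each of AND and F5, the difference was 0.446 points (4 against 4 mice, exact permutation p = 0.0286, the smallest possible), and it had the same direction in experiments 1 (0.0975 points, 1 against 2 mice) and 3 (0.0862 points, 2 against 4), where no exact permutation p under 0.133 can be reached. Within the sorted mice the difference was 0.369 points (exact permutation p = 0.0952, the smallest that 5 against 2 mice can give), and within the unsorted mice 0.0862 points (2 against 8 mice, exact permutation p = 0.0444, the smallest possible). The shares of MHCII-/- and of sorted wild-type mice (0.217 ± 0.135%) did not overlap, but 2 against 3 mice cannot go below an exact permutation p of 0.2. After thinning each cell to 1000 UMIs only 9 cells kept 2 Zbtb16 UMIs, the difference was 0.0288 points and the call was lost (exact permutation p = 0.103); at 1500 UMIs 10 cells were left, all from wild-type and MHCII-/- mice. Among cells with at least 8000 UMIs, 86 of 6739 in wild-type and MHCII-/- mice were Zbtb16-positive and 1 of 6491 in the other mice.

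The single MHCI-/- cell did not look like an αβ T cell. It held 3 UMIs of Zbtb16, 55 of Trdc (the constant region of the TCR δ chain), 8 of Tcrg-C4 and 0 of Trac, Il4, Icos and B2m. Its antibodies read 475 UMIs of TCR γδ and 187 of Vγ1.1 per 10000 antibody UMIs, against 10.7 of TCRβ. The wild-type Zbtb16-positive cells read 0.529 to 1.98 per 10000 for Vγ1.1 when summed by mouse. Trdc was detected in 13 of the 97 cells and Trac in 95.

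The next comparison set the Zbtb16-positive cells of each wild-type mouse against Zbtb16-negative cells of the same mouse, which had 0 UMIs of all 5 rule genes. UMIs were summed per mouse and given as CPM (UMIs per 1000000 RNA UMIs of that sum), and tested with the quasi-likelihood test of edgeR with the mouse as a block and Benjamini-Hochberg adjustment over all genes tested. Of 9729 genes, 1273 passed an adjusted p of 0.05 (13.1%), 541 higher (5.56%) and 732 lower (7.52%). The number of cells behind a sum was 3, 9, 9, 19 and 2 in wild-type mice 1 to 5, so single values of mice 1 and 5 rest on few cells. Zbtb16-positive cells were far deeper than Zbtb16-negative cells (median 4355 UMIs). A further fit kept only cells, positive and negative, within the interquartile depth of the positive cells of their mouse. There 84 genes passed in 3 mice, 61 higher and 23 lower, so this fit also rests on fewer positive cells. With DESeq2 on all cells of both sums 404 were higher and 276 lower.

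Il4, which encodes the cytokine interleukin 4, had the largest fold among the named genes that were higher in every mouse. It read 107, 73.3, 480, 59.9 and 40.9 CPM in Zbtb16-positive cells of mice 1 to 5 (152 ± 185, SD) and 0.613 ± 0.637 CPM in Zbtb16-negative cells. Every mouse was higher in its Zbtb16-positive cells, with mouse 3 far above the other mice (log2 fold change 7.92, SE 0.49, adjusted p = 5.86e-56 by edgeR). The test pools its estimate of spread over genes, so such small p-values do not measure the spread of Il4 between 5 mice. Il13, encoding the related cytokine interleukin 13, read 0, 0, 681, 24.5 and 0 CPM. Its 104 UMIs came from mice 3 and 4 alone, 95 of them from mouse 3, against 1 UMI in all wild-type Zbtb16-negative cells. Both genes could pass the filter on low counts through the Zbtb16-positive sums alone, so their differences are a description. Over all 97 cells Il4 was detected in 52 and Il13 in 23, of which 20 also held Il4.

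Il4 and Il13 are neighbours on chromosome 11 (chr11:53602982-53618669 and chr11:53631324-53634702, both minus strand, GRCm38), with starts 16.0 kb apart. The 250 bases before the start that RefSeq gives are shown because both cytokines were detected in the same cells. For Il4 there were 2 such starts, of which 1 is shown. That start lies inside the gene as GENCODE annotates it, so the last 4 bases of its window belong to the gene. Capitals mark GGAAA, the core of sites for NFAT (the factor that calcineurin brings to the nucleus), on either strand, and in Il13 a GATA word. A GATA word was GATA after an adenine or thymine and before an adenine or guanine, on either strand, and no 2 marked stretches overlap.
Il4, chr11:53618666-53618915, minus strand: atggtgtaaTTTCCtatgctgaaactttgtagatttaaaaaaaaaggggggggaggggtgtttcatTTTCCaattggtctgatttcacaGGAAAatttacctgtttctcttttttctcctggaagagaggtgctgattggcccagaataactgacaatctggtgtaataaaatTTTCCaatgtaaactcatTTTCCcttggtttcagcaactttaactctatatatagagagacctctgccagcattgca
Il13, chr11:53634703-53634952, minus strand: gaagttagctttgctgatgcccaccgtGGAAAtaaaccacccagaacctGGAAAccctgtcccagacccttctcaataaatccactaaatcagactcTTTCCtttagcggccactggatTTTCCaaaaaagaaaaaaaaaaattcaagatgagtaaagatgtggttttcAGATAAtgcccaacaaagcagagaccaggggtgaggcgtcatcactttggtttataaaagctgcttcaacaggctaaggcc
The Il4 window held 5 GGAAA cores and 0 GATA words, and the Il13 window 4 cores and 1 GATA word. Over 32851 RefSeq promoters, 55.6% held a GGAAA core, 6.39% held 3 or more, and 26.5% held a GATA word. These matches describe letters in the window and not bound sites.

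Of 15 migration and residency genes tested, 3 rose and 7 fell (median -0.89). Of 19 cytokine receptor and signaling genes 6 rose and 6 fell (median -0.10), where 5.56% of all genes tested rose and 7.52% fell. Cxcr6, the receptor for CXCL16, read 285, 334, 165, 120 and 40.9 CPM in Zbtb16-positive cells against 7.88 ± 3.88 in Zbtb16-negative cells (log2 4.75, SE 0.30, adjusted p = 4.99e-53 by edgeR). Il18r1, a chain of the interleukin 18 receptor, read 303, 236, 158, 188 and 164 CPM against 11.8 ± 5.26 (log2 4.25, adjusted p = 7.99e-47). Neither gene overlapped between the sums, which held for 9.39% of the genes tested. Ccr2, a receptor for monocyte chemoattractants, was higher by 4.26 on the log2 scale, and its 368 CPM in mouse 5 stood above 71.3 to 142 CPM in the other mice. Fam129a (log2 4.61) and Rbpms (4.26) were higher in all 5 mice. Maf, a transcription factor of interleukin-producing T cells, read 105 ± 66.7 CPM against 10.8 ± 13.4 (4.17).

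Markers of other cell types went both ways. H2-Ab1 and H2-Eb1, which encode MHC class II chains, had 0 UMIs in wild-type Zbtb16-positive cells, at least 25.7-fold and 24.2-fold lower than in Zbtb16-negative cells against a floor of 3 counts over the group. Lyz2, the lysozyme of myeloid cells, and Il2ra, the interleukin 2 receptor α chain, were also at 0, at least 19.5-fold and 8.67-fold lower. The unsorted mice carried these bounds: without mouse 4 they were 4.14-fold for H2-Ab1, 4.41-fold for H2-Eb1, 3.77-fold for Lyz2 and 2.35-fold for Il2ra, and in the sorted mice alone at most 1.38-fold, with none for Il2ra. H2-Ab1 read 36.0, 4.25 and 0.726 CPM in the Zbtb16-negative cells of the sorted mice 1 to 3 and 328 and 237 in those of the unsorted mice. Tnfrsf4, which encodes OX40, read 2.87 CPM against 93.2 (log2 -5.13). The summed B cell markers ranged from 46.3 to 164 CPM in Zbtb16-positive cells of the 5 mice and from 107 to 854 in Zbtb16-negative cells, with Ms4a1 and Iglc2 at 0; of 3 of these genes tested 1 fell and 2 did not pass. The myeloid markers ranged from 125 to 491 against 112 to 1222 CPM, with Lyz2, Csf1r and Siglech at 0; of 6 tested 4 fell and 1 rose. The ranges of both lists overlapped. The erythrocyte markers ranged from 0 to 2.72 against 0 to 4059 CPM. Of 7 innate lymphoid markers tested, 5 rose and 0 fell (Il13, Arg1, Rora, Id2 and Il7r; median 1.37), and the summed list ranged from 204 to 1523 CPM against 453 to 629, with Klrg1 at 0. Of 4 γδ T cell markers tested, 3 rose, all of them γ chain constant regions, and 0 fell (median 2.06), and the summed list ranged from 368 to 927 against 41.5 to 393 CPM. The part of such cells in these values was not tested. A gene high in Zbtb16-positive cells alone, such as Il13, could pass the filter on low counts through them, so the list counts are a description.

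The lists of NKT subset genes divided as follows, where the median log2 change over all genes tested was -0.16. Of all genes tested 5.56% rose and 7.52% fell. The filter on low counts left 14 of 17 NKT1, 11 of 11 NKT2, 10 of 13 NKT17 and 11 of 11 stage 0 genes, and a gene high in Zbtb16-positive cells alone could pass it through them, so the counts are a description. Of 14 NKT1 genes tested, 9 rose and 1 fell (median 1.70). Tbx21, encoding T-bet, read 17.8, 24.4, 21.5, 10.9 and 0 CPM against 1.31 ± 0.713 (log2 3.95). Nkg7, a granule protein, read 143, 358, 229, 161 and 81.8 CPM against 36.0 ± 10.2 (2.49). The chemokine receptor Cxcr3 (3.80), the killer cell lectin receptor Klrb1c (3.23), Cd160 (2.58), the interleukin 2 receptor β chain Il2rb (1.95) and the protease Ctsw (1.57) rose too. Gzma, which encodes the protease granzyme A, fell (-2.50).

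Of 11 NKT2 genes, 6 rose and 3 fell (median 0.91). Icos, a costimulatory receptor, read 820, 603, 452, 503 and 81.8 CPM in mice 1 to 5 (492 ± 269) against 69.7 ± 12.5 in Zbtb16-negative cells (log2 2.82, adjusted p = 8.33e-44 by edgeR). Mouse 5, with 2 cells, was low, and mice 1 to 4 lay far above the Zbtb16-negative range of 58.1 to 88.3 CPM. Plac8 (2.49) and Il17rb, the receptor for interleukin 25 (1.84), also rose. Gata3, the transcription factor of interleukin 4 producing cells, read 107 ± 35.4 against 171 ± 52.1 CPM and did not pass (log2 -0.60, adjusted p = 0.0778); among cells with at least 8000 UMIs its sign turned to 0.37. The chemokine receptor Ccr9 (-3.15) and Cd4 (-2.63) fell. Il6ra, the interleukin 6 receptor, fell in the wild-type mice (-1.45) but was higher when the MHCII-/- mice were added (0.62).

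Of 10 NKT17 genes, 6 rose and 0 fell (median 2.67). The 6 that rose read at least 13.6 CPM in mice 2 and 4, at most 7.17 in mice 1 and 3, and 0 in mouse 5 apart from Sdc1 (40.9). Il1r1, an interleukin 1 receptor, read 0, 40.7, 0, 19.1 and 0 CPM against 0.258 ± 0.174 (log2 5.67). Blk, a Src family kinase, read 0, 48.9, 7.17, 32.7 and 0 CPM against 1.18 ± 1.08 (4.52). Serpinb1a, a protease inhibitor, rose by 2.18 on the log2 scale.

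Of 11 genes of the CD24-high precursor called stage 0, 0 rose and 9 fell (median -1.69). The rule asks for 0 UMIs of Cd8b1, which is stricter in the deeper Zbtb16-positive cells and removes double-positive thymocytes. The part of the rule in this fall was not tested. Cd24a, which encodes the surface marker CD24, read 0, 0, 0, 2.72 and 40.9 CPM against 112 ± 71.0 (log2 -5.07). Itm2a, a membrane protein of cells under selection, read 89.2, 48.9, 64.5, 19.0 and 81.8 CPM against 1157 ± 430 (-4.72). The early transcription factor Sox4 (-2.21) and Lef1 (-1.69) fell too. Id3, an inhibitor of E proteins, and Egr2, which receptor signals induce before PLZF, did not pass.

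**Figure D2:**
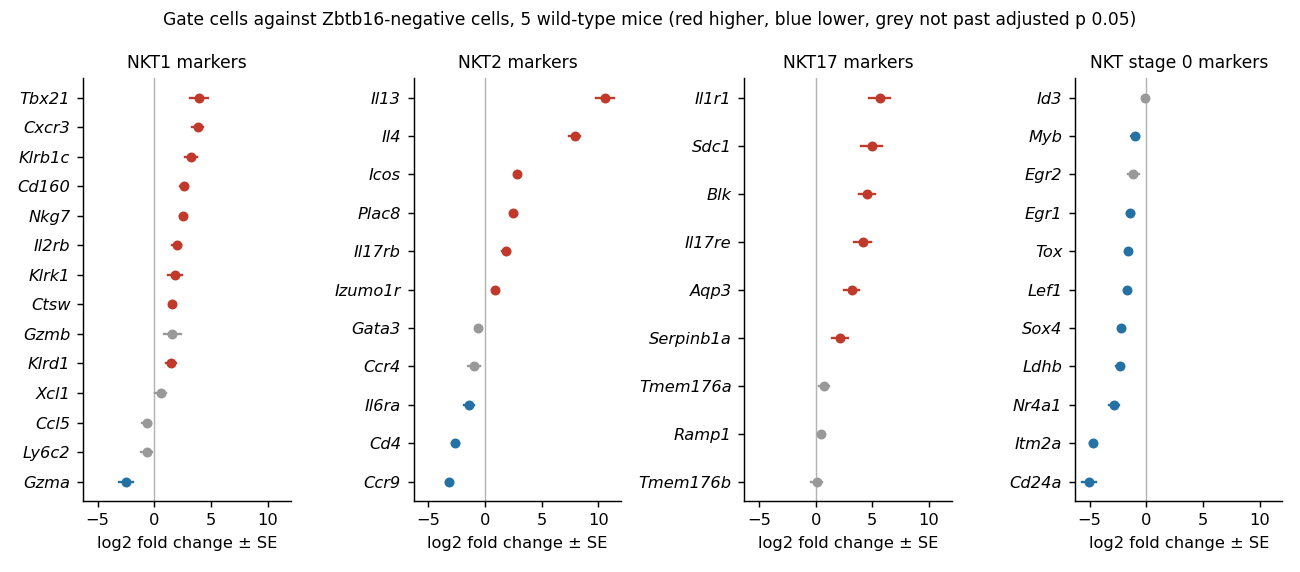
Log2 fold change with its standard error (x axis) of Zbtb16-positive against Zbtb16-negative cells in the 5 wild-type mice, for genes of the NKT1, NKT2, NKT17 and stage 0 lists (y axis). Red and blue points passed an adjusted p of 0.05 as higher or lower, grey points did not. The stage 0 list had 9 of 11 genes lower and 0 higher, and Il13 (present in 2 mice) and Il4 lie farthest to the right.

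Of 21 transcription factors tested, 5 rose and 9 fell (median -0.62), where 5.56% of all 9729 genes tested rose and 7.52% fell. Besides Maf and Tbx21, the E protein inhibitor Id2 (1.37), the nuclear receptor Rora (2.55) and Runx3 (0.84) rose; Runx3 turned to -0.16 in the 3 mice with at least 10 Zbtb16-positive cells, which are wild-type mouse 4 and both MHCII-/- mice, so cell number and genotype changed at once. The T cell identity factors Tcf7 (-1.77) and Bcl11b (-2.13) fell. Hivep3, which acts early in PLZF-expressing lineages, did not pass. Of 8 genes of the SLAM receptor pathway that supports NKT selection, 0 rose and 2 fell. These were Slamf1 (-3.53) and the kinase Fyn (-0.85), while Slamf6 was not called (0.60, adjusted p = 0.0758 by edgeR). With so few genes this count is a description and was not tested against the share over all genes.

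Among receptor genes, those of the αβ receptor were lower and those of the γ chain higher. Trac (log2 -0.99), Trbc1 (-2.03) and Trbc2 (-1.16) fell. Tcrg-C4, a γ chain constant region, read 874, 73.3, 215, 237 and 164 CPM against 25.4 ± 25.1 (3.77), and Tcrg-C1 (2.14) and Tcrg-C2 (1.98) rose as well. The constant regions of the γ locus are similar in sequence and 3′ reads can be split between them, so their separate values are uncertain. All 8 cycling genes rose (median 1.65), Mki67 by 1.79 and Top2a by 1.80. Both turned lower within the interquartile depth (-0.93 and -1.93), a fit that also held 3 mice in place of 5. The lymph node homing receptor Ccr7 read 29.4 ± 32.5 against 266 ± 74.6 CPM (-2.71, but 0.025 in the same 3 mice of both genotypes). Il7r, the interleukin 7 receptor, rose by 0.81. Fcer1g, a signalling chain of innate lymphocytes and myeloid cells, rose by 1.60, was -0.053 within the interquartile depth and read 327 CPM in the 2 cells of mouse 5.

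The Zbtb16-positive cells were then set against a gate for γδ T cells (at least 2 UMIs of Trdc, 0 of Zbtb16 and of the other rule genes apart from Sox13) in the same 5 mice. The median cell of this gate in wild-type and MHCII-/- mice read 11.4 UMIs of TCR γδ per 10000 antibody UMIs, against 9.06 in mature CD4 cells, so the gate is named here by Trdc and not as a lineage. Of 3743 genes, 264 passed (7.05%), 138 higher (3.69%) and 126 lower (3.37%). Il4 (log2 6.81, from 1 UMI in all Trdc gate cells), Ccr2 (6.39), the lysosomal enzyme Arsb (5.91), Cxcr6 (5.47), Ahnak (4.96), Bcl2a1b (4.91) and Il18r1 (4.90) were higher. S100a6, a calcium-binding protein of effector cells, read 534 ± 65.6 CPM against 25.5 ± 21.9 (4.81, adjusted p = 3.18e-09 by edgeR) and was higher in all 5 mice. Icos read 492 against 31.5 CPM (4.62) and Id2 was higher by 2.92. Il13 had 104 UMIs against 0 (at least 124-fold higher), of which 95 came from mouse 3, and without that mouse the bound was 12.8-fold. Cxcr3 had 45 UMIs against 0 (at least 53.7-fold higher), of which 29 came from mouse 4, and without that mouse the bound was 11.8-fold.

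Of 4 markers of preselection double-positive thymocytes tested, 4 were lower than in the Trdc gate, among them the terminal transferase Dntt (log2 -5.63), Arpp21 (-6.67) and the recombinase Rag1 (-2.09). Cpa3, a carboxypeptidase of mast cells and progenitors, and Gfra1 had 0 UMIs, at least 24.6-fold and 14.9-fold lower (11.4-fold and 5.72-fold without mouse 4). The effector protease Gzma read 5.74 against 537 CPM (log2 -6.33), and Cd24a was lower too (-5.70). Of 6 NKT1 genes tested (of 17) 4 rose and 1 fell, of 8 NKT2 genes (of 11) 3 rose and 1 fell, of 3 NKT17 genes (of 13) 0 were called, and of 11 stage 0 genes 0 rose and 4 fell. Genes low in the Trdc gate could pass the filter on low counts through the Zbtb16-positive sums alone, so these counts are a description. Maf (1.1, adjusted p = 0.11), Plac8 (-0.87, adjusted p = 0.12) and Trac (1.00, adjusted p = 0.11 by edgeR) did not pass, while Trbc1 fell (-1.73). Tcrg-C4 read 313 ± 320 against 235 CPM and was not called.

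Against mature CD4 cells (at least 1 UMI of Cd4 and of Ccr7, 0 of all rule genes) 1228 of 6025 genes passed (20.4%), 574 higher (9.53%) and 654 lower (10.9%). Among genes higher in every mouse with at least 50 CPM, Il4 (9.72, from 1 UMI in the CD4 gate) came before Cxcr6 (7.95), Rbpms (6.98), Tcrg-C4 (6.62), Ccr2 (6.53), Tcrg-C2 (5.89), Fam129a (5.83) and Nkg7, which read 195 against 4.02 CPM (5.78). Only 10 of 17 NKT1, 8 of 11 NKT2 and 3 of 13 NKT17 genes passed the filter on low counts, and genes low in CD4 cells could pass it through the Zbtb16-positive sums alone. Of these, 10 NKT1 genes, 5 NKT2 genes and 3 NKT17 genes rose and 2 NKT2 genes fell, which is a description. Plac8 (6.32), Icos (2.73) and Id2 (1.41) were higher. The genes most lowered in every mouse included the glucocorticoid-induced Tsc22d3 (-4.81), Itm2a (-4.60), the shared interleukin 6 receptor chain Il6st (-3.89), Gsn (-4.0) and Tnfrsf4 (-5.51). Trac (-1.03) and Trbc1 (-1.73) were lower here too. The comparisons share the Zbtb16-positive sums, so they are not independent of each other.

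Antibody UMIs did not enter the rule, and they were summed and tested in the same way, per 10000 antibody UMIs. Of 111 antibodies, 22 passed against Zbtb16-negative cells (19.8%), 10 higher (9.01%) and 12 lower (10.8%). CD278, the protein of Icos, read 2104, 2086, 2182, 1858 and 608 in wild-type mice 1 to 5 against 171 ± 70.2 (log2 3.37, adjusted p = 4.1e-05 by edgeR). Mice 1 to 4 lay within a narrow range, and mouse 5 was lower but still above all Zbtb16-negative sums (98.8 to 262). CD73, an ectoenzyme that makes adenosine, read 133, 153, 208, 275 and 201 against 24.2 (3.01). Integrin β7 read 112, 617, 277, 216 and 256 against 37.3 (2.85), and its partner CD103, which binds E-cadherin, read 101, 134, 146, 98.1 and 80.2 against 28.7 (2.08). None of these overlapped between the sums, which held for 17.1% of the antibodies. CXCR4 (1.81), CD304 (1.61), the transferrin receptor CD71 (1.32) and CD38 (1.27) were also higher, but CD71 was -0.083 within the interquartile depth.

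CD24 was lower in all mice. It lay between 5.47 and 15.4 in the 5 mice, against at least 78.8 in every Zbtb16-negative sum (log2 -3.55). CD150, the protein of Slamf1 (-2.73), CD8b (-2.70), CD25 (-2.59), the activation marker CD69 (-2.26), CD8a (-2.03) and TCR Vβ5 (-2.0) fell in the same comparison. CD8b and CD8a are no independent readings, since the rule asks for 0 UMIs of Cd8b1 and Zbtb16-positive cells are deeper. By the same gene the rule removes double-positive thymocytes, and its part in the lower CD24 was not tested. CD25 in Zbtb16-negative cells read 5.07, 3.42 and 4.75 in the sorted mice and 64.8 and 69.6 in the unsorted mice, so its value rests mostly on the unsorted mice. Surface TCRβ read 47.1 ± 26.0 against 127 ± 29.5 (-1.55) and CD4 266 ± 143 against 688 ± 230 (-1.62), so the antibody and the transcript moved the same way for both.

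Against the Trdc gate 16 of 110 antibodies passed (14.5%), 5 higher (4.55%) and 11 lower (10.0%), with CD278 (3.96), CD73 (2.99), integrin β7 (2.50), CD103 (2.00) and CXCR4 (1.44) higher. CD25 (-4.77), CD24 (-4.66), Vγ1.1 (-2.50), CD117 (-2.45), TCR γδ (-2.32), Vγ2 (-2.30) and CD150 (-1.86) were among the lower. CD25 in the Trdc gate read 11.1, 52.7 and 2.49 in the sorted mice and 767 and 635 in the unsorted mice, and its sums overlapped. TCR γδ read 12.7 ± 8.61 against 67.0 ± 46.9 with overlapping sums. The Trdc gate was picked by a γδ receptor transcript, so the lower TCR γδ, Vγ1.1 and Vγ2 are no independent readings. Against mature CD4 cells 20 of 111 passed (18.0%), 8 higher (7.21%) and 12 lower (10.8%), with integrin β7 (2.89), CD278 (2.80), CD73 (2.78), CD103 (2.04), CD38 (1.91), CD304 (1.91), CXCR4 (1.68) and CD279 (1.17) higher, and CD24 (-3.21), CD69 (-2.75), CD150 (-2.72), TCR Vβ5 (-2.47), CD4 (-2.24) and CD45.2 (-1.39) lower; CD4 is no independent reading there, since those cells were picked by a UMI of Cd4. TCRβ read 47.1 ± 26.0 against 186 ± 61.7 (-2.39), with no overlap. Cell by cell, 95 of 96 Zbtb16-positive cells of wild-type and MHCII-/- mice (99.0%) lay above the median mature CD4 cell for CD73 and 86 of 96 (89.6%) for CD278, whereas 6 of 96 lay above it for CD24.

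**Figure D3:**
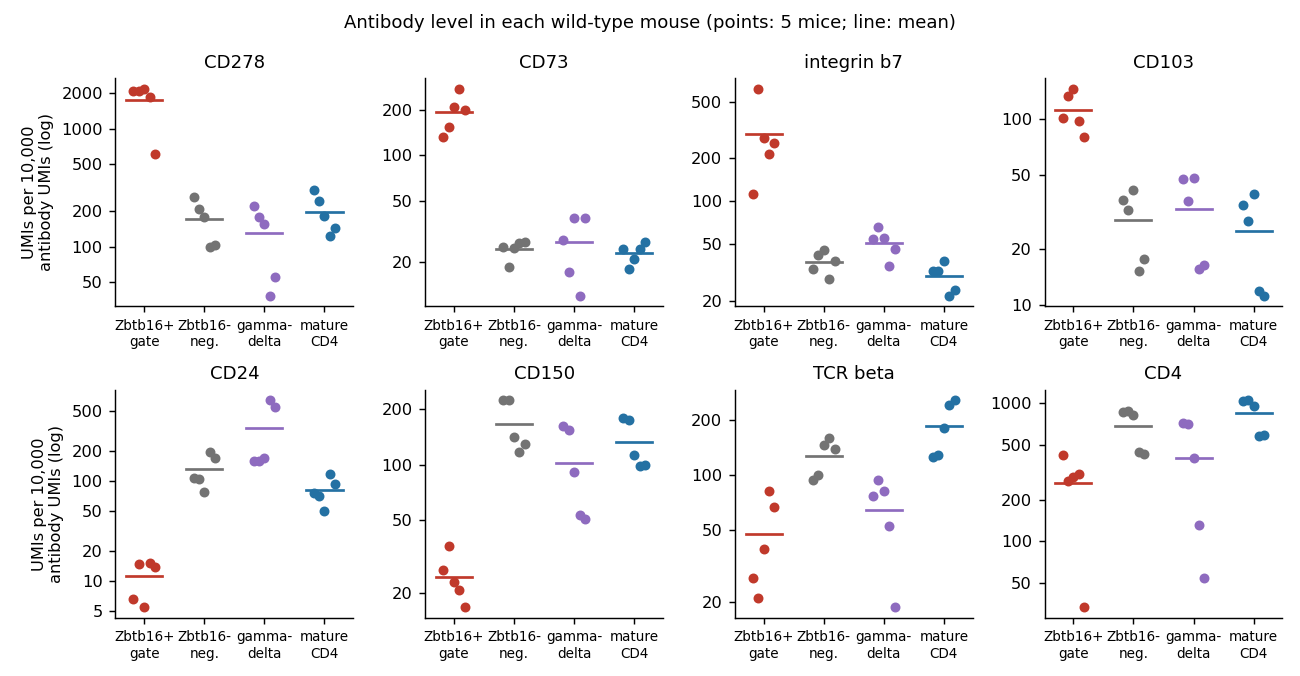
Antibody UMIs per 10000 (y axis, log scale) of 8 antibodies in the 5 wild-type mice, for Zbtb16-positive cells, Zbtb16-negative cells, the Trdc gate (γδ) and mature CD4 cells (x axis). Points are mice and lines are means. CD278, CD73, integrin β7 and CD103 lie higher and CD24 and CD150 lower in all 5 Zbtb16-positive sums than in any other sum shown.

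The 97 cells were divided into 5 clusters by their RNA, so the RNA of a cluster is given as a description only. Cluster 5 (8 cells, 3 wild-type and 5 MHCII-/-) was NKT17-like by the marker list. Il17re was detected in 8 of 8 cells, Blk, Sdc1 and Serpinb1a in 7 each, Il1r1 in 6 and Ccr6 in 5. Il4, Il13 and Il17a were detected in 0. The name rests on this list alone, and its CD8α and TCR Vβ5 antibodies were higher, as given below. Whether these were NKT, mucosal-associated invariant or γδ T cells was not tested. Cluster 4 (17 cells, 8 and 9) was NKT1-like, with Nkg7 in 16 of 17, Cxcr3 in 14, Ly6c2 in 10, Klrb1c in 8 and Tbx21 in 7, and with Il4 in 6. Cluster 3 (20 cells, 11 and 8, and the MHCI-/- cell) was cycling, with Mki67 and Top2a in 19 of 20, and 4 of its cells were called doublets at the highest median depth (26041 UMIs). Cluster 1 (28 cells, 9 and 19) was led by Il6ra, Slc43a2, Ifi27l2a, Irgm1 and Slfn1, and cluster 2 (24 cells, 11 and 13) by Nrgn, Il13, Fcer1g, Tnfrsf9 and Hivep3. Il4 was in 18 of 28 and 14 of 24 of their cells, but their leading genes did not match a list well enough for a name.

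**Figure D4:**
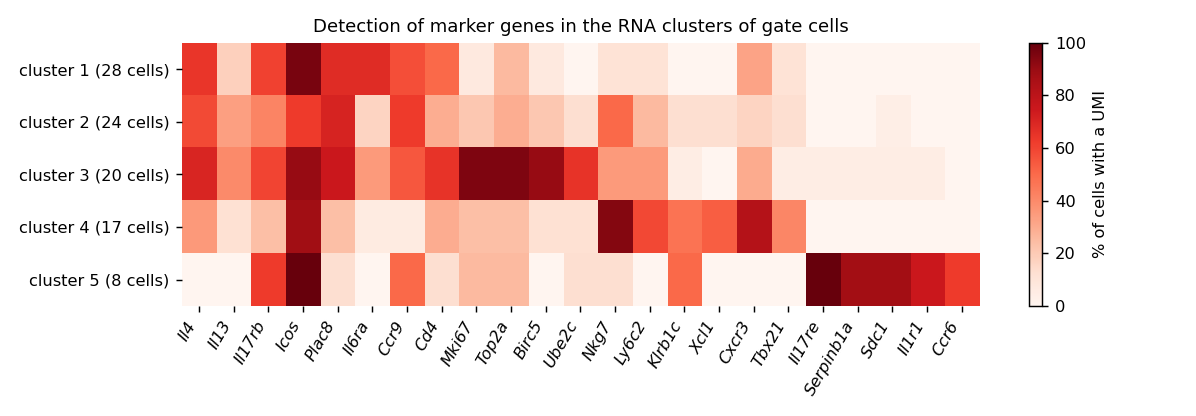
Percent of cells with a UMI (color, 0 to 100%) of each marker gene (x axis) in the 5 clusters of Zbtb16-positive cells (y axis, with cell numbers). Cluster 5 is set apart by Il17re and Serpinb1a with Il4 and Il13 at 0 of 8 cells, cluster 4 by Nkg7 and Cxcr3, and Icos is in most cells of every cluster.

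Antibodies were tested between clusters within the mice that had at least 2 cells in both sums. Cluster 5 differed most, with 14 of 92 antibodies past the threshold in 3 mice (15.2%), 7 higher (7.61%) and 7 lower (7.61%). Its sums rest on 3 and 2 cells of MHCII-/- mice 1 and 2 and 2 cells of wild-type mouse 2. Of its 8 cells 1 was called a doublet. Integrin β7 read 917, 982 and 1237 in cluster 5 against 168, 143 and 216 in the other Zbtb16-positive cells of MHCII-/- mice 1 and 2 and wild-type mouse 2 (log2 2.72, adjusted p = 0.000343 by edgeR). CD103, its α chain partner, read 206, 229 and 221 against 71.0, 62.4 and 78.4 (1.77). CD8α read 145, 194 and 66.6 against 26.4, 24.0 and 20.1 (2.55). CD8b, which did not pass, read 208 and 124 in the MHCII-/- mice and 5.30 in wild-type mouse 2, against 38.3, 32.8 and 24.0. TCR Vβ5 passed (2.22) and likewise read 18.0 and 21.3 in the MHCII-/- mice but 1.51 in wild-type mouse 2, against 3.24, 2.55 and 4.41. All 3 mice moved the same way without overlap for integrin β7, CD103 and CD8α, and 37.0% of the antibodies did not overlap. CD278 (1.05), CD90.2 (1.63) and the interleukin 7 receptor CD127 (1.19) were higher as well. CD4 read 172, 179 and 50.7 against 565, 665 and 419 (-2.07), and Ly-6C (-2.84), CD304 (-1.30), CD200 (-1.29), CD45 (-0.83) and CD43 (-0.73) were lower.

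**Figure D5:**
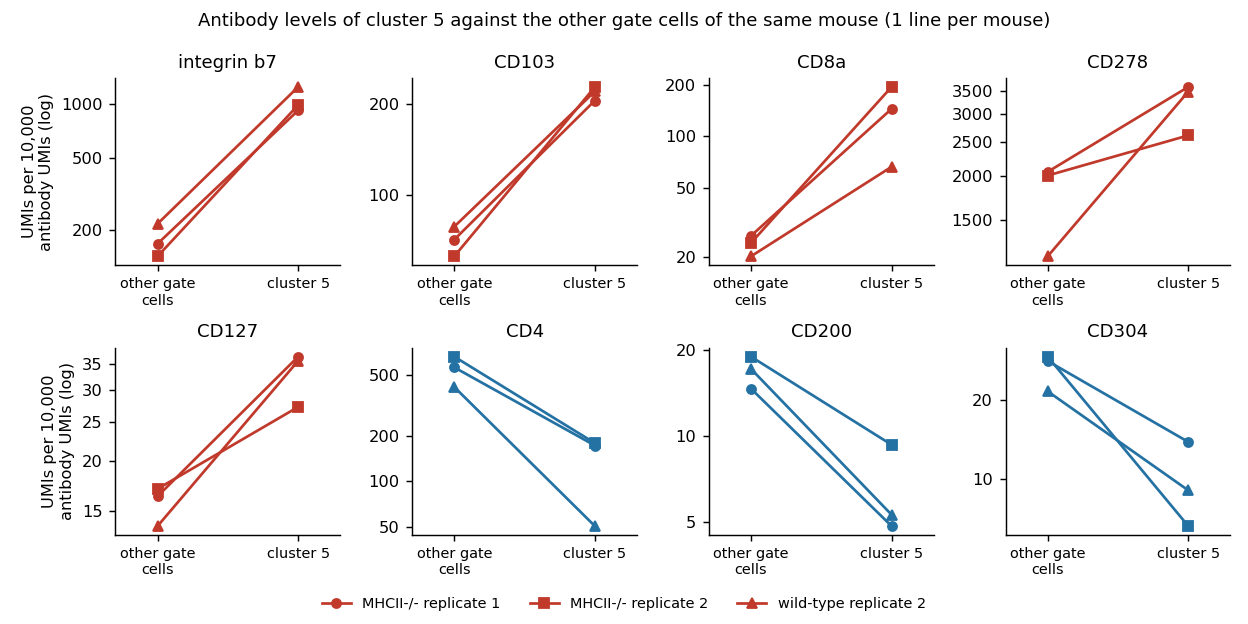
Antibody UMIs per 10000 (y axis, log scale) in cluster 5 and in the other Zbtb16-positive cells of the same mouse (x axis), with 1 line per mouse and 3 mice. Integrin β7, CD103, CD8a, CD278 and CD127 rise and CD4, CD200 and CD304 fall in all 3 mice.

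Cluster 2 differed in CD24, which read 49.2, 49.1, 60.1 and 9.06 against 8.42, 7.24, 6.36 and 2.35 in MHCII-/- mice 1 and 2 and wild-type mice 2 and 3 (log2 2.58, adjusted p = 0.00435 by edgeR, 1 of 96 antibodies, 1.04%). The RNA of cluster 2 had Cd24a in 4 of 24 cells and Trdc in 6. TCR γδ also read higher there in all 4 mice and did not pass (20.1, 46.2, 67.6 and 10.9 against 8.90, 13.1, 6.71 and 9.02, log2 1.55, adjusted p = 0.154 by edgeR); CD24 is high in the Trdc gate too, and the part of such cells in the CD24 value was not tested. Cluster 3 had higher CD71 (log2 1.28) and CD4 (659 against 350, 1.12) and lower CD38 (10.7 against 38.6, -1.65), 3 of 105 antibodies (2.86%). In cluster 4, 0 of 97 antibodies (0.0%) passed with edgeR and 17 had an unadjusted p under 0.05; CD122, the protein of Il2rb, read 10.4 against 3.96 and CD183, that of Cxcr3, 16.0 against 5.88 (adjusted p = 0.0922 for both). In cluster 1, 0 of 106 passed and 19 had an unadjusted p under 0.05. Within the 97 cells Tbx21 was found in 14, of which 8 also held Il4.

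The genotype comparison set the 2 MHCII-/- mice (23 and 31 cells) against the 3 sorted wild-type mice (3, 9 and 9 cells), with all 7 mice in the fit. Of 2485 genes, 3 passed (0.121%, 84 at an unadjusted p under 0.05). Glo1, a glyoxalase, read 312 and 304 CPM in MHCII-/- and 53.5, 97.7 and 93.2 in sorted wild-type mice (log2 1.79, adjusted p = 0.0459 by edgeR). Rnaset2b, a ribonuclease, read 7.56 and 7.48 against 71.3, 155 and 136 CPM (-4.03, adjusted p = 0.021), and since Rnaset2a is nearly identical its reads are uncertain. Hist1h2ap, a histone gene, read 869 and 346 against 3460, 1727 and 3872 CPM (-2.32, adjusted p = 0.0459). The calls were lost when either MHCII-/- mouse was left out, but 1 mouse is then in that group, so such a fit cannot decide how stable they are. Without wild-type mouse 1, the one sorted mouse of another experiment, Rnaset2b alone of the 3 genes still passed. Glo1 was 254 and 267 CPM in the Zbtb16-negative cells of the MHCII-/- mice and Rnaset2b 5.99 and 3.2, against 88.0 to 92.5 and 97.8 to 118 CPM in those of the sorted wild-type mice, so both genes differed in the same direction outside the Zbtb16-positive cells. Glo1 and Rnaset2b lie 3.63 Mb and 27.2 Mb from the deleted gene H2-Ab1 on chromosome 17 (chr17:30584936-30626871 and chr17:6970634-7011299, GRCm38), and whether linked sequence plays a part in these values was not tested. Among genes of the NKT lists, 0 passed: Icos read 508 ± 51.8 against 625 ± 185 CPM, Il4 126 ± 6.98 against 220 ± 226 and Nkg7 106 ± 49.0 against 243 ± 109 (unadjusted p = 0.0025, adjusted p = 0.58).

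By antibodies, 1 of 103 passed (0.971%). I-A/I-E, the MHC class II proteins whose gene is deleted, read 2.91 and 3.62 in MHCII-/- against 42.3, 56.2 and 38.1 in the sorted wild-type mice (log2 -3.57, adjusted p = 0.0106 by edgeR), while H2-Ab1 RNA was at 0 in the wild-type Zbtb16-positive cells. The unsorted wild-type mice read 199 and 215. The call was lost when either MHCII-/- mouse was left out. Only 1 mouse is then in that group, so such a fit cannot decide how stable the call is.

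The change between Zbtb16-positive and Zbtb16-negative cells was also compared between the genotypes by an interaction term, which 187 of 9774 genes passed (1.91%), 157 higher (1.61%) and 30 lower (0.307%) in MHCII-/-. The Zbtb16-negative cells differ in makeup between the genotypes. The mature CD4 gate held 40 and 80 cells in MHCII-/- against 396 to 671 in sorted wild-type mice. The part of this makeup cannot be told apart from a change in the Zbtb16-positive cells. Ifit1, an interferon-induced gene, read 61.0 CPM in positive and 14 in negative MHCII-/- cells against 2.39 and 117 in wild type (log2 difference 7.49). Its positive sums in sorted wild-type mice 1 to 3 were 0, 0 and 7.17 CPM, near the floor, so the size of this difference is uncertain. Igfbp4 (4.48), Ccr7 (3.72), and the interferon-regulated genes Slfn1 (3.72) and Irgm1 (3.30) moved the same way. Nkg7 read 106 and 132 CPM in MHCII-/- against 243 and 31.0 in wild type (-3.08), so its rise in Zbtb16-positive cells was seen in wild type and not in MHCII-/- mice, where negative cells were high. Cd160 (-2.61), Fcer1g (-2.37), Tcrg-C4 (-2.11) and Ikzf2 (-2.06) had the same sign. Fewer genes passed when either MHCII-/- mouse was left out, but 1 mouse is then in that group, so such a fit cannot decide how stable the calls are.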

How the data were processed

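The authors made counts with Cell Ranger 3.1.0 on mm10, per the labels and methods, and deposited RNA and antibody UMI counts (unnormalized) for 19 lanes of 17 mice, with 85389 barcodes, 28692 genes and 111 antibodies. A barcode was kept with at least 200 genes and at most 15% mitochondrial UMIs (79569 cells, 72054 after the protein filters of the study, which were tried as an alternative). The median depth per lane was 1516.5 to 7062 UMIs. Members, gates and gene lists were chosen with earlier results of these data known. Lanes of a mouse were added, and counts were summed per mouse and gate. Sums were tested with edgeR 4.0.16 (glmQLFTest, TMM, filterByExpr, R 4.3.3) with the mouse as a block, because both sums come from the same animal; p-values were adjusted by Benjamini-Hochberg, and DESeq2 1.42.0 was an alternative. The planned minimum of 10 cells per sum left 1 wild-type mouse, so at least 2 cells were required, a choice made after the data were seen. Shares were compared by exact permutation over mice with scipy 1.17.1. Intervals and floors (3 counts) cover counting error only. Clusters came from the Leiden algorithm (scanpy 1.11.5, resolution 0.6, 1500 variable genes, 10 components). Sequences came from the GRCm38 genome of RefSeq, gene and segment coordinates from GENCODE, and promoter starts from RefSeq. The marked promoter motifs were sought on both strands. On simulated counts of 3486 genes for the wild-type comparison with Zbtb16-negative cells, 32.8%, 92.5% and 97.0% of genes changed by 1, 2 and 3 on the log2 scale were called, and 5.13% of calls were false. The simulation had a fixed dispersion, no differences between mice, the means of Zbtb16-negative cells and fewer genes than the 9729 tested. Its rates therefore do not describe the reported calls. Genes were named as list members, or as the 8 most raised and 6 most lowered past the threshold in every mouse with at least 50 CPM in the higher sum; 5 each way between genotypes and 8 antibodies each way. The titles carry 3 experiment numbers, and the share was recomputed within each, a check added after the data were seen. A few genes and antibodies the rule or lists name are not reported here. Predicted doublets were kept and left out as an alternative. No gate cells were tested in MHCI-/- or TCR transgenic mice, which held 1 and 0.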

Additional observations from a re-analysis of the deposited data

Results flagged for a closer look

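In the sums of the 5 wild-type mice, 17 of 129 values examined had 1 mouse far from the other mice by Dixon's gap ratio. Its chance rate of about 1 of 20 is for normally distributed values and was not checked for sums of few cells. H2-Aa, Tnfrsf4 and Il6st reached a ratio of 1.0 because only 1 mouse held any UMI of the gene. Whether 17 is more than chance gives therefore cannot be decided, and the values are a description. Wild-type mouse 5, with 2 Zbtb16-positive cells, held the value apart for Ccr2 (368 CPM), Cd24a (40.9 CPM), Lef1 (777 CPM), Hivep3 (613 CPM), Ahnak (449.8 CPM), Arpp21 (40.9 CPM), Dntt (81.8 CPM), CD278 (608 per 10000 antibody UMIs) and CD38 (78.3). Mouse 1, with 3 cells, held it for Tcrg-C4 (874 CPM), Egr2 (71.3 CPM) and Tsc22d3 (17.8 CPM). Mouse 3 held it for Il4 (480 CPM), Cd160 (215 CPM) and Tnfrsf4 (14.3 CPM), mouse 4 for H2-Aa (2.72 CPM), and mouse 2 for Il6st (24.4 CPM). The values of Cd24a and Arpp21 in mouse 5, Tsc22d3 in mouse 1 and H2-Aa in mouse 4 are 1 UMI each.

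The change between Zbtb16-positive and Zbtb16-negative cells differed between MHCII-/- and sorted wild-type mice by an interaction term for 10 named genes. On the log2 scale the difference was 7.49 for Ifit1, 4.48 for Igfbp4, 3.72 for Ccr7, 3.72 for Slfn1, 3.30 for Irgm1, -3.08 for Nkg7, -2.61 for Cd160, -2.37 for Fcer1g, -2.11 for Tcrg-C4 and -2.06 for Ikzf2. The negative cells of the genotypes differ in makeup, so the source of the difference cannot be told apart. For Ifit1 the positive sums of the sorted wild-type mice were 0, 0 and 7.17 CPM, so its size is uncertain.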

How the results depend on the processing

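Zbtb16-positive cells were few: 2 to 19 per wild-type mouse, and no sum of mice 1 or 5 carries much weight alone. The named values called numbered 160, where a gene or antibody counts once per comparison. Of their 2227 alternative values, 1990 were still called, 228 kept their direction without the call and 9 turned. The share difference was 0.0288 points after thinning to 1000 UMIs (unsorted mice alone 0.00409), and leaving out each mouse in turn gave 0.234 to 0.340 points (unsorted mice 0.0207 to 0.152). Genes called against Zbtb16-negative cells numbered 680 with DESeq2, 515 with no replicate block, 84 within the interquartile depth, 756 at 3 or more Zbtb16 UMIs, 339 in cells with at least 8000 UMIs, 2128 with the MHCII-/- mice added and 745 to 1268 when leaving out each mouse, the lowest without mouse 4; antibodies numbered 13 within the interquartile depth and 11 in deep cells. Against the Trdc gate they numbered 164 with DESeq2, 54 with no replicate block, 121 within the interquartile depth, 135 at 3 or more UMIs, 414 with no count filter, 117 without doublets and 457 with MHCII-/- mice; antibodies 10 within the interquartile depth. Against mature CD4 cells they numbered 803 with DESeq2, 552 with no replicate block, 117 within the interquartile depth, 806 at 3 or more UMIs, 451 in deep cells and 548 (without mouse 4) to 1410 when leaving out each mouse. Between genotypes, same-numbered mice did not deviate together (correlations of -0.0099 and -0.0258), so the numbers do not pair them; the replicate block gave 23 genes and 3 antibodies, no count filter 11 genes, 3 or more UMIs 1 and 0, protein filters 1 and 3, no doublets 6 and 0, DESeq2 4 antibodies, and leaving out each mouse 0 to 8 genes and 0 to 3 antibodies. The interaction had 46 genes with DESeq2 and 40 to 273 when leaving out each mouse. Cluster antibodies numbered 2 to 27 when leaving out each mouse, 10 at resolution 0.3 and 36 at resolution 1. Within the interquartile depth the sign turned for CD71 (-0.083), Gata3 (0.30), Mki67 (-0.93), Top2a (-1.93) and Fcer1g (-0.053); with MHCII-/- mice added for Il6ra (0.62); in mice with at least 10 cells (1 wild-type and 2 MHCII-/-) for Il6ra (2.00), Runx3 (-0.16), Ccr7 (0.025) and Fcer1g (-0.033); in deep cells for Gata3 (0.37), Tmem176b (-0.35), Id3 (0.078) and Egr2 (0.34); Tmem176b with DESeq2 (-0.013); Id3 with no replicate block (0.044) and at 3 UMIs (0.096); and, leaving out each mouse, Tmem176a ranged from -0.080 (without mouse 2) to 0.91 and Tmem176b from -0.28 (without mouse 2; -0.14 without mouse 4) to 0.17. The cause was not tested.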
